A study of Homo sapiens with 12 samples.

Results

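KCNN4, GJB1 and P2RX7 encode channels of the cell surface, and their transcripts were followed in melanoma cells treated with an inhibitor of RAF. They were chosen by their signals on these same 12 arrays, where each changed strongly and in one direction in all 5 lines, so that change is described here and not tested. They are 3 of the 11963 genes with a named probe set, each read by a single probe set (204401_at, 204973_at and 207091_at), and all 3 are among the 7178 genes bright enough to be compared. The cells were Malme3M, SkMel-1, SkMel-5, SkMel-19 and SkMel-28, established human melanoma lines that all carry the V600E form of the kinase BRAF, also in the controls. All 5 lines were kept for 8 h with 250 nM PLX4032 (vemurafenib), a small-molecule RAF inhibitor, or with the solvent DMSO at 0.1%, and SkMel-19 and Malme3M also with 1000 nM PLX4032. With 1 array per line and dose, the lines are the replicates, and a value of 1 line has no error of its own.

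KCNN4 is a potassium channel opened by calcium through bound calmodulin. By letting potassium leave the cell it makes the membrane voltage more negative, which favours further entry of calcium, and it is best known from red blood cells and activated T cells. GJB1 is a connexin. Connexins assemble into gap junctions, through which ions and small metabolites pass directly between neighbouring cells, and GJB1 is the main connexin of hepatocytes and of the myelin of Schwann cells, a neural crest lineage like melanocytes. P2RX7 is a cation channel opened by high concentrations of extracellular ATP, best known in macrophages, where it starts inflammasome activation, and it is also found in melanoma.

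The 3 genes lie on different chromosomes. In the human assembly GRCh38.p14 KCNN4 covers chr19:43766533-43780973, GJB1 chrX:71215239-71225516 and P2RX7 chr12:121132876-121188032. The 250 bases before each gene's start, from RefSeq for GRCh38.p14, are printed because 2 of the genes fell together and the third rose. They are chr19:43780974-43781223 on the minus strand for KCNN4, and chrX:71214989-71215238 and chr12:121132626-121132875 on the plus strand for GJB1 and P2RX7. Capitals mark matches, on either strand, to TGANTCA (AP-1), CACGTG (E-box), CATGTG (an E-box variant), CCGGAAG (ETS), GGGCGG (SP1) or ACAAT (SOX).
KCNN4: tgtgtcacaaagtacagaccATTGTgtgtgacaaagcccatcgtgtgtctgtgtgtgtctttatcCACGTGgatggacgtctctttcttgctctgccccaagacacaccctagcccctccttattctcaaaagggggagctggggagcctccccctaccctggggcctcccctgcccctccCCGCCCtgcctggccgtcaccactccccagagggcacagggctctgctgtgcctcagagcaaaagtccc
GJB1: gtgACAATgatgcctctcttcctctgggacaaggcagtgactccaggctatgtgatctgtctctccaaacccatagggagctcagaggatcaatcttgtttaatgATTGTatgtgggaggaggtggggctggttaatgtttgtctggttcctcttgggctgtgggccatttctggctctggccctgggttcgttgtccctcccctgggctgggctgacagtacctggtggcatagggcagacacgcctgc
P2RX7: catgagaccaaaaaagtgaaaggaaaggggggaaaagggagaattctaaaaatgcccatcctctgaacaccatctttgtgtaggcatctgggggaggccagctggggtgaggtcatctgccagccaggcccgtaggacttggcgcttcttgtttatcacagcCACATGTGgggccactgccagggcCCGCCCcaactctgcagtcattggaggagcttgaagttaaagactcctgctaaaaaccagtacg

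The KCNN4 window held 1 match to CACGTG, 185 bases before the start, a motif found in 6.49% of 27305 windows of the same length. The P2RX7 window held 2 overlapping matches to CATGTG, beginning 88 and 86 bases before the start, which 9.54% of windows held. GGGCGG occurred once in the windows of KCNN4 and P2RX7 and in 42.3% of all windows. ACAAT had 2 matches in the GJB1 window and 1 in that of KCNN4, and occurred in 25.2% of all windows. TGANTCA, present in 6.60% of windows, and CCGGAAG, present in 8.82%, had no match in any of these 3 stretches. A match is only a run of letters, and GJB1 is known to be transcribed from alternative starts, which the arrays do not distinguish.

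KCNN4 fell in every line. Its signal at 250 nM was 148.5 in SkMel-1, 80.7 in SkMel-5, 90.7 in SkMel-28, 16.4 in SkMel-19 and 198.0 in Malme3M, against 1153.0, 337.5, 467.2, 263.7 and 1775.8 in the same lines under DMSO. Every array at 250 nM was thus dimmer than every DMSO array, although the DMSO arrays themselves spanned a 6.73-fold range. The mean log2 change was -2.67 ± 0.58 (SD, n = 5 lines, SE 0.26), a 6.38-fold fall on the log2(signal + 12) scale used throughout. In single lines it was 7.26-fold in SkMel-1, 3.77-fold in SkMel-5, 4.67-fold in SkMel-28 and 8.51-fold in Malme3M. For SkMel-19, where the treated signal was 16.4, the fold is 9.71 at face value and 3.08 with dim signals raised to 85.7, so its place among the lines is not settled. Of all 7178 genes 0.125% had a mean fall at least as large, and KCNN4 ranked at place 9 among the falls. In 3 of its 12 arrays the signal lay under 85.7, the level below which genes were not compared, so the size of the fall rests in part on the pseudocount. With every signal under 85.7 raised to it the mean log2 change was -2.42. In RNA from whole cultures, fewer cells with a transcript and less of it per cell cannot be told apart.

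Under DMSO the order of the lines for KCNN4 was Malme3M, SkMel-1, SkMel-28, SkMel-5 and SkMel-19, with steps of 0.62, 1.28, 0.46 and 0.34 on the log2 scale. At 250 nM Malme3M, SkMel-1 and SkMel-28 came in the same order, with steps of 0.39 and 0.64, while SkMel-5 and SkMel-19 both lay under 85.7 and are not ordered. Each level is 1 array, so none of these steps, nor those given for the other 2 genes, has an error to be judged by.

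GJB1 also fell in every line, from a more even level. Its signal at 250 nM was 395.3 in SkMel-1, 713.4 in SkMel-5, 482.4 in SkMel-28, 510.9 in SkMel-19 and 278.0 in Malme3M, against 1972.4, 2043.7, 1524.6, 1856.8 and 1421.2 under DMSO. The groups did not overlap, and the highest array at 250 nM lay 0.98 on the log2 scale below the lowest DMSO array. The mean log2 change was -1.91 ± 0.37 (SD, n = 5 lines, SE 0.16), a 3.77-fold fall, between 2.83-fold in SkMel-5 and 4.94-fold in Malme3M. GJB1 ranked at place 26 among the falls (0.362% of genes fell as much or more). None of its 12 arrays lay under 85.7, so the size of this change depends little on how dim signals were treated: it was -1.94 with a pseudocount of 1 and -1.83 with 50.

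The DMSO levels of GJB1 spanned a 1.44-fold range in the order SkMel-5, SkMel-1, SkMel-19, SkMel-28 and Malme3M, with no step over 0.28 on the log2 scale. At 250 nM the range was 2.57-fold, in the order SkMel-5, SkMel-19, SkMel-28, SkMel-1 and Malme3M, with steps of 0.47, 0.08, 0.28 and 0.49.

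P2RX7 rose in every line. Its signal at 250 nM was 1008.7 in SkMel-1, 567.2 in SkMel-5, 837.1 in SkMel-28, 104.8 in SkMel-19 and 232.0 in Malme3M, against 242.5, 264.8, 232.1, 57.1 and 64.9 under DMSO. Here the groups overlapped, because SkMel-19 and Malme3M at 250 nM reached no more than the DMSO level of the other 3 lines. Within each line the 250 nM array was the brighter one. The mean log2 change was 1.46 ± 0.52 (SD, n = 5 lines, SE 0.23), a 2.75-fold rise, between 1.69-fold in SkMel-19 and 4.01-fold in SkMel-1, and at place 11 among the rises (0.153% of genes rose as much or more). The DMSO arrays of SkMel-19 and Malme3M lay under 85.7, and with signals raised to that level the mean log2 change was 1.35, with 0.29 in SkMel-19 and 1.44 in Malme3M.

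Under DMSO P2RX7 formed an upper group of SkMel-5, SkMel-1 and SkMel-28, with gaps of 0.12 and 0.06 on the log2 scale, and a lower one of Malme3M and SkMel-19, which differed by 0.15. The step between them was 1.67 with both lower arrays taken at face value. At 250 nM the order was SkMel-1, SkMel-28, SkMel-5, Malme3M and SkMel-19, with steps of 0.27, 0.55, 1.25 and 1.06.

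**Figure D1:**
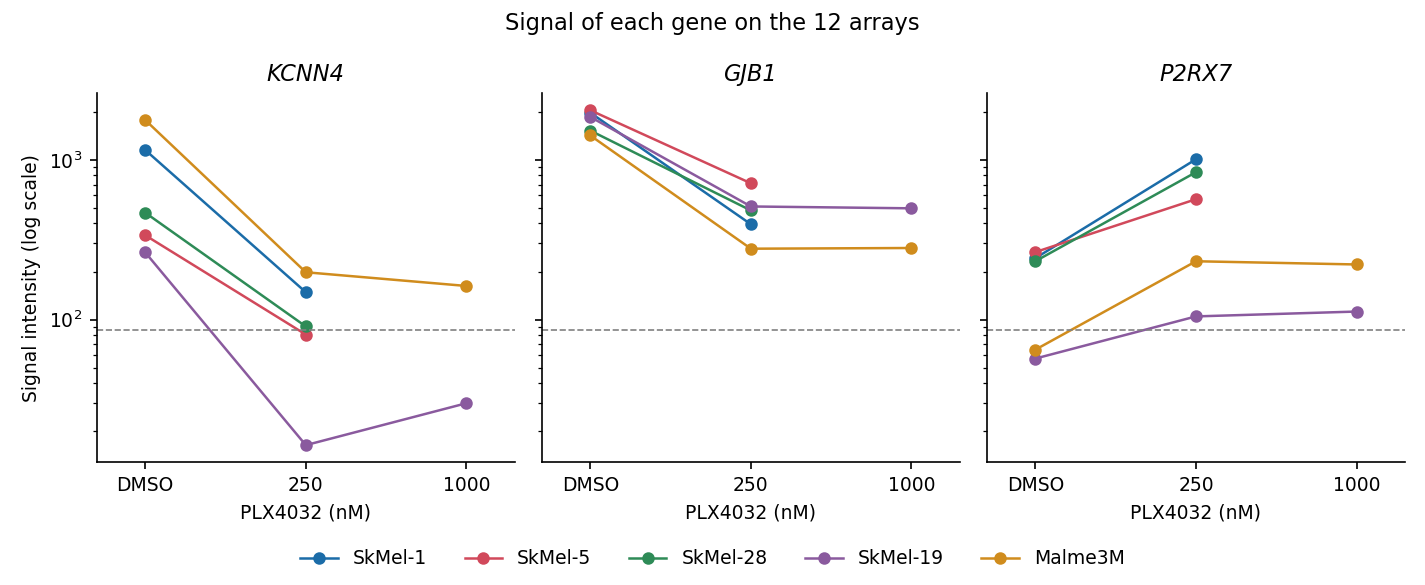
Signal intensity (log scale) of KCNN4, GJB1 and P2RX7 on each of the 12 arrays, by PLX4032 dose, with 1 coloured line per cell line and the dashed line at 85.7, the level of the filter. The 250 nM points of KCNN4 (16.4 to 198.0) and GJB1 (278.0 to 713.4) lie below all DMSO points of the same gene, whereas those of P2RX7 overlap between lines and rise within each line.

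For comparison, 16.6% of the 7178 genes were lower in all 5 lines and 20.9% were higher in all 5, and in 1.31% every 250 nM array lay below every DMSO array. A mean fall of 2-fold or more was seen for 1.63% of genes and a mean rise of as much for 0.738%. Since the 3 genes were chosen for such a change, these shares are given as background only. Over the 10 arrays at 250 nM and DMSO, the drug accounted for 63.5% of the variation of log2 signal for KCNN4, 88.7% for GJB1 and 32.7% for P2RX7. Cell line accounted for 34.1%, 8.64% and 63.9% of it, and 2.41%, 2.63% and 3.39% were left. P2RX7 thus varied more between lines than with the drug, and GJB1 mostly with the drug.

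The size of the change varied between lines. Among the 4 lines other than SkMel-19, SkMel-5 had the smallest change of each gene (-1.91 for KCNN4, -1.50 for GJB1 and 1.07 for P2RX7). Malme3M had the largest falls of KCNN4 (-3.09) and GJB1 (-2.31) among these 4. SkMel-19 had a rise of P2RX7 of 0.76 and a change of GJB1 of -1.84, and its change of KCNN4, -3.28 at face value, was -1.62 with dim signals raised to 85.7. The fall of KCNN4 was larger than that of GJB1 in the 5 pairs of a treated array and its DMSO array from lines other than SkMel-19 (both doses for Malme3M), by 0.46 to 1.11 on the log2 scale with dim signals raised. In the 2 pairs of SkMel-19 it was larger at face value but smaller with dim signals raised, by 0.24 and 0.28. With 1 array per line and dose, differences between lines could not be tested.

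**Figure D2:**
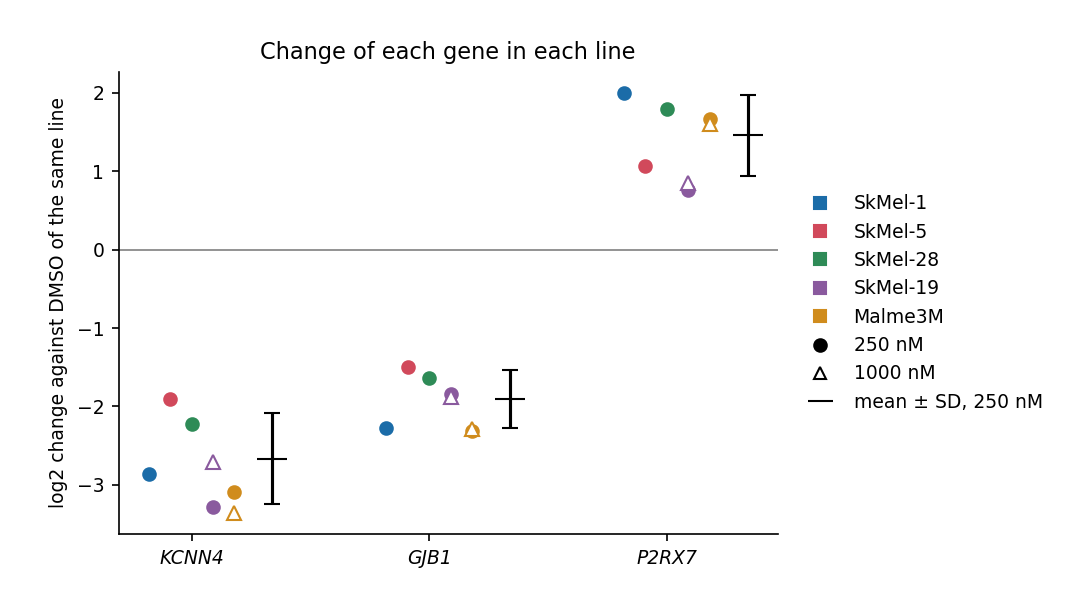
log2 change of KCNN4, GJB1 and P2RX7 against DMSO of the same line at 250 nM (filled circles) and 1000 nM (open triangles), coloured by line, with the mean ± SD over 5 lines at 250 nM in black. All points of KCNN4 and GJB1 lie below 0 and all points of P2RX7 above it, and the 1000 nM points of GJB1 and P2RX7 sit close to the 250 nM points of the same line.

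The 2 lines with a second dose showed what 1000 nM added to 250 nM. In SkMel-19 under DMSO, 250 nM and 1000 nM, KCNN4 had signals of 263.7, 16.4 and 30.0, GJB1 of 1856.8, 510.9 and 497.4, and P2RX7 of 57.1, 104.8 and 112.4. In Malme3M the same series was 1775.8, 198.0 and 162.5 for KCNN4, 1421.2, 278.0 and 280.8 for GJB1, and 64.9, 232.0 and 221.5 for P2RX7. The step lay between DMSO and 250 nM for each gene, and between the drug doses the log2 change was -0.01 for GJB1 (SD 0.04, n = 2 lines), 0.01 for P2RX7 (SD 0.11) and 0.15 for KCNN4 (SD 0.59). The change of KCNN4 between doses was 0.56 in SkMel-19, where both signals lay under 85.7, and -0.27 in Malme3M, and with dim signals raised to 85.7 the mean of the 2 lines was -0.14. Against DMSO the mean log2 change at 1000 nM was -3.04 for KCNN4 (SD 0.45, n = 2 lines), -2.08 for GJB1 (SD 0.29) and 1.23 for P2RX7 (SD 0.53). This comparison shares its DMSO arrays with that at 250 nM and is no independent repeat of it.

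Relatives of the 3 genes were mostly dim. Of 61 other potassium channel genes on the array, 13 reached a signal of 85.7 on any array and 3 passed the filter on mean level. None of the 7 other calcium-activated potassium channel genes passed it. Among 219 genes for other channels, their associated proteins and purinergic receptors in 6 lists, 29 were compared, of which 7 rose and 6 fell at a limma adjusted p under 0.05 (Benjamini-Hochberg over all genes). Together these are 44.8%, against a background of 28.3% of all 7178 genes (15.2% higher, 13.1% lower), and their median log2 change was 0.22, against 0.03 for all genes. None of the 29 fell by 2-fold or more, and 2 rose by as much. The genes that passed the filter did so on their mean over 12 arrays, so the counts describe only channels that these lines transcribe at an appreciable level.

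In the potassium channel list KCNAB1, a beta subunit that modifies voltage-gated channels, rose (log2 fold change 0.95, SE 0.12, limma adjusted p = 0.00111) in all 5 lines and was the single call (median 0.32). KCNAB2 (0.32, limma adjusted p = 0.141) and KCNS3 (-0.03, limma adjusted p = 0.878) did not pass. Of 8 other connexins and pannexins 2 were compared. GJC1, another gap junction subunit, fell (-0.71, SE 0.15, limma adjusted p = 0.00926), with signals of 74.2 to 229.2 at 250 nM and 200.7 to 302.7 under DMSO. PANX1, which forms channels that release ATP, rose (0.37, SE 0.11, limma adjusted p = 0.0407), a call lost without SkMel-1, SkMel-28 or SkMel-19 (limma adjusted p of 0.0892 to 0.120). GJA1, the most widespread connexin, had signals of at most 25.5 at 250 nM and 13.8 under DMSO.

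Of 12 other purinergic receptors 2 were compared (median -0.20). P2RX4, an ATP-gated channel related to P2RX7, was higher in all 5 lines but did not pass (0.23, SE 0.10, limma adjusted p = 0.108). P2RX5, a further member of that family, fell (-0.64, SE 0.19, limma adjusted p = 0.0350), opposite to P2RX7. Its call was lost without SkMel-1, SkMel-19 or Malme3M (limma adjusted p of 0.0706 to 0.0798), and with dim signals raised to 85.7 its log2 change was -0.31 (limma adjusted p = 0.0970). Among 7 genes for extracellular nucleotide enzymes and adenosine receptors, 1 rose and 1 fell (median -0.10). ENPP2, autotaxin, which makes lysophosphatidic acid, rose (0.90, SE 0.16, limma adjusted p = 0.00467), and the adenosine receptor ADORA2B fell (-1.29, SE 0.21, limma adjusted p = 0.00285).

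Of 20 genes in the list of TRP, calcium, sodium and chloride channels 5 rose and 3 fell (median 0.19), but 1 fell without SkMel-1, without SkMel-5 or without Malme3M, while 5 rose without any 1 of the lines. TRPM1, a cation channel of melanocytes, rose (1.54, SE 0.21), as did BEST1, a calcium-activated chloride channel (1.32, SE 0.19), ORAI3, a store-operated calcium channel subunit (0.73, SE 0.14), and CLCN6, a chloride transporter of late endosomes (0.65, SE 0.10), with limma adjusted p of 0.00129, 0.00191, 0.00661 and 0.00288. The falls were LRRC8B, a subunit of volume-regulated anion channels (-0.59, limma adjusted p = 0.00850), the cation channel TRPV2 (-0.36, limma adjusted p = 0.0209) and ORAI2, a relative of ORAI3 (-0.35, limma adjusted p = 0.0424). Of 2 neurotransmitter-gated channels the nicotinic receptor subunit CHRNA5 fell (-0.76, SE 0.11, limma adjusted p = 0.00197, list median -0.27). Of 10 ion pumps and exchangers 1 fell and none rose (median -0.09), namely the calcium pump ATP2B1 (-0.57, SE 0.13, limma adjusted p = 0.0125).

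**Figure D3:**
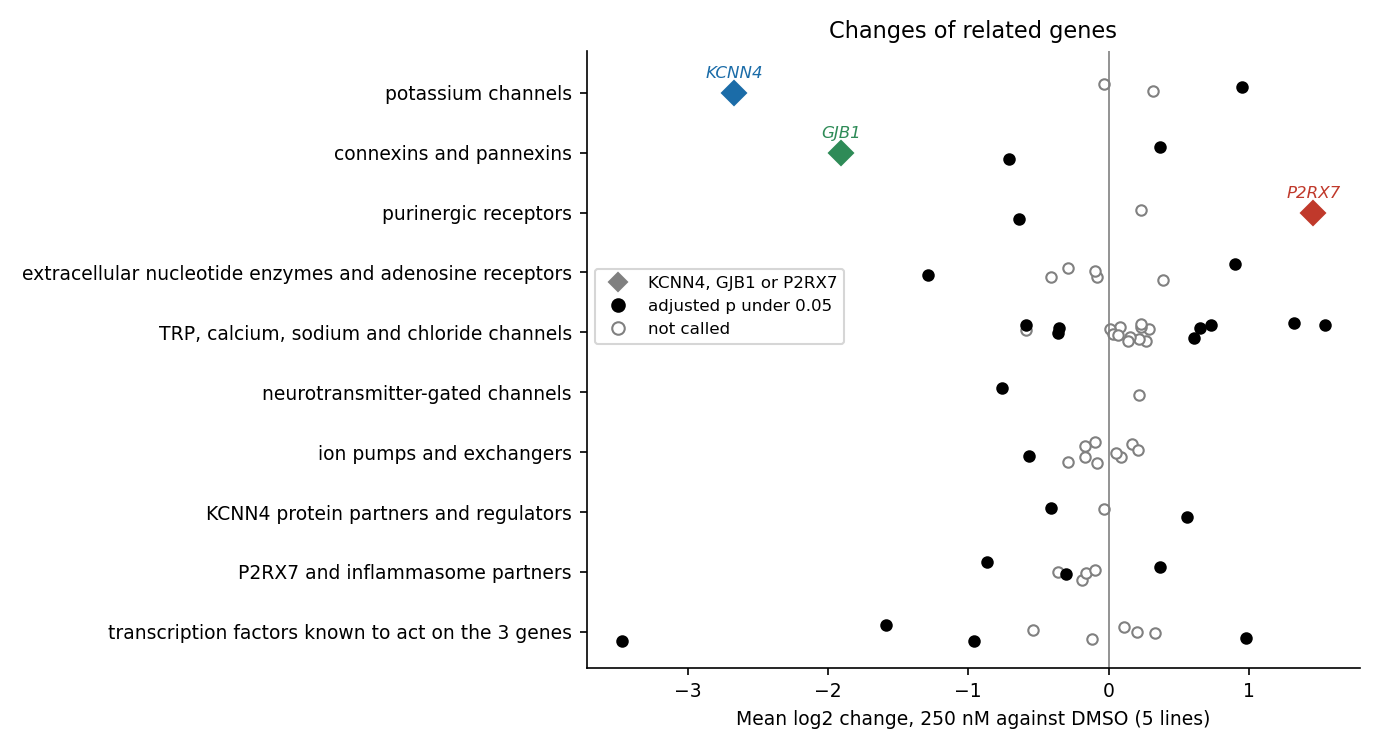
Mean log2 change at 250 nM against DMSO (horizontal axis, 5 lines) of the genes compared in each list of related genes (rows), filled where the limma adjusted p was under 0.05 and open where it was not, with KCNN4, GJB1 and P2RX7 as coloured diamonds. In the rows of their own families the 3 genes lie further from 0 than the other genes compared, which span -0.71 to 0.95. The 3 were chosen for a strong change on these arrays, so their outer place follows from the choice. Genes under the filter are not drawn.

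Genes known to act with the channel proteins were also followed. Of 3 regulators of the KCNN4 channel compared, the lipid kinase PIK3C2B, which favours its opening, rose (0.56, SE 0.09, limma adjusted p = 0.00263) and the ubiquitin ligase TRIM27, which inhibits PIK3C2B, fell (-0.41, SE 0.10, limma adjusted p = 0.0160). The call of TRIM27 was lost without Malme3M (limma adjusted p = 0.0530), and the list median was -0.03. Of 7 genes of the inflammasome and interleukin-1 system that P2RX7 serves in macrophages, 1 rose and 2 fell (median -0.19). Besides PANX1 these were IL1RAP, a subunit of the interleukin-1 receptor (-0.87, SE 0.15, limma adjusted p = 0.00348), and the protease gene CASP1 (-0.30, SE 0.10, limma adjusted p = 0.0489), whose call was lost on leaving out any of the 5 lines (limma adjusted p of 0.0568 to 0.141). NLRP3, the sensor that P2RX7 activates in macrophages, had signals of at most 12.8 at 250 nM and 34.5 under DMSO, and was not compared.

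Transcription factors reported in other cells to act on KCNN4, GJB1 or P2RX7 were looked at as well, and 1 of 9 rose and 3 fell (median -0.12). The falls were all in AP-1 subunits, which act on KCNN4 in T cells: FOSL1 (-3.47, SE 0.28, limma adjusted p = 0.000181), JUN (-1.59, SE 0.25, limma adjusted p = 0.00256) and JUND (-0.96, SE 0.16, limma adjusted p = 0.00348, but 0.0717 with the mean of its probe sets). FOSL1 lay under 85.7 on 6 of 12 arrays, with signals of 33.6 to 92.5 at 250 nM and 482.1 to 2751.9 under DMSO, and JUN on 3. With dim signals raised the changes were -3.25 (limma adjusted p = 0.000502) for FOSL1 and -1.25 (limma adjusted p = 0.00637) for JUN. FOSL2, a further AP-1 subunit, rose (0.98, SE 0.26, limma adjusted p = 0.0226) and lost its call without SkMel-1, SkMel-28 or SkMel-19 (limma adjusted p of 0.0648 to 0.0721). REST, a repressor of KCNN4 in smooth muscle, stood at 0.33 (limma adjusted p = 0.105). SOX10, which activates GJB1 in Schwann cells, was at 0.11 (SE 0.06, limma adjusted p = 0.180), and SP1 at 0.20 (limma adjusted p = 0.510). Whether any of these factors bears on the 3 genes here was not tested.

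At 1000 nM, 4 genes of the 11 lists together rose and 6 fell among 64 compared (15.6%), against a background of 11.2% (5.29% higher, 5.89% lower). At 250 nM the counts for these 64 were 10 and 14 (37.5%). The rises were in KCNAB1 (1.25, SE 0.14, limma adjusted p = 0.00738), TRPM1 (1.73, SE 0.35, limma adjusted p = 0.0347), BEST1 (1.77, SE 0.21, limma adjusted p = 0.00860) and CLCN7. The falls were in FOSL1 (-3.36, SE 0.17, limma adjusted p = 0.00101), JUN (-2.02, SE 0.22, limma adjusted p = 0.00738), JUND (-1.58, SE 0.23, limma adjusted p = 0.0143), IL1RAP (-1.52, SE 0.21, limma adjusted p = 0.0123), CHRNA5 (-1.02, SE 0.16, limma adjusted p = 0.0175) and TRPV2 (-0.59, limma adjusted p = 0.0438). The call of JUN at this dose was lost with dim signals raised (-1.57, limma adjusted p = 0.0944). That of TRPV2 was lost with dim signals raised, with quantile normalization, with no filter and with no trend in the prior variance. Of the families of the 3 genes, GJC1 (-0.65, limma adjusted p = 0.0692), PANX1 (0.31, limma adjusted p = 0.132), P2RX4 (0.28, limma adjusted p = 0.158) and P2RX5 (-0.58, limma adjusted p = 0.201) did not pass at this dose.

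The neighbouring genes that were compared had log2 changes between -0.30 and 0.23. SMG9, a factor of nonsense-mediated decay 11.6 kb from KCNN4, was -0.30 (SE 0.10, limma adjusted p = 0.0437, above 0.05 on leaving out any of the 5 lines), and ZNF45, the nearest gene compared on the other side at 131.7 kb, was 0.03 (limma adjusted p = 0.831). ZMYM3, 14.1 kb from GJB1, was 0.18 (SE 0.10, limma adjusted p = 0.209). NLGN3, 39.9 kb on its other side, had no signal above 24.2 and was not compared. P2RX4, given above, is also the neighbour of P2RX7, at 22.1 kb, and OASL on the other side, with signals of 23.7 to 78.7, was not compared.

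The genes nearest to each of the 3 over the 7 treated arrays were looked up across the genome. Likeness was measured as the root mean square difference between the log2 changes of 2 genes over these 7 arrays, whose median over all genes was 2.87 for KCNN4, 2.04 for GJB1 and 1.44 for P2RX7. Closest to KCNN4 were PHLDA2 (0.48), a growth-restraining gene of the placenta, RND3 (0.54), which opposes RhoA, the ETS factor ETV5 (0.57), the melanocortin receptor MC1R (0.60) and TNFRSF12A (0.60), the receptor of TWEAK. Closest to GJB1 were CPN1 (0.33), which encodes a carboxypeptidase of plasma, the ganglioside synthase ST8SIA1 (0.36), the phosphatase CDC25A (0.38) and the ETS factors ELK3 (0.38) and ETV1 (0.39). Closest to P2RX7 were the transcription factor MAF (0.29), the membrane carboxypeptidase CPM (0.36), ZZZ3 (0.37), the melanocyte coregulator CITED1 (0.37) and KLHL24 (0.38). Some of these genes were dim. ST8SIA1 lay under 85.7 on 6 of 12 arrays, ETV1 on 5, RND3 and MAF on 4, CPN1 and CPM on 2 and TNFRSF12A on 1. Their distances, and so their order, rest in part on the pseudocount. KCNN4 itself lay under 85.7 on 3 arrays and P2RX7 on 2. All distances to these 2 genes, also those of bright genes, and their order therefore rest in part on it too. A flat profile at the gene's own mean change would stand at 0.50 for KCNN4, 0.31 for GJB1 and 0.46 for P2RX7. Of the 5 nearest genes, 1 was closer than that for KCNN4, 0 for GJB1 and 5 for P2RX7. The measure also grows with any difference in the size of the change, so it does not tell how far the course from line to line is shared. That was not tested. Near P2RX7, MAF changed by 2.00, 0.64, 1.30, 0.69 and 1.96 at 250 nM in the 5 lines, in the order of the horizontal axis of the plot of similar genes, where P2RX7 changed by 2.00, 1.07, 1.80, 0.76 and 1.67.

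Over the levels on all 12 arrays, each gene centred on its mean, the genes most like KCNN4 were MC1R (0.82), ST8SIA1 (0.92) and ETV5 (0.92), with a median over all genes of 1.76. Nearest to GJB1 were ETV1 (0.29), IER2 (0.37) and STK17A (0.40), with a median of 1.16. The genes nearest to P2RX7 were PLOD2 (0.64), ABCA5 (0.65) and CITED2 (0.65), with a median of 1.30. Their mean log2 changes at 250 nM were 0.37, 0.42 and 1.13, against 1.46 for P2RX7, so nearness in level does not mean an equal change with the drug. Here too the distances of the dim genes ST8SIA1 and ETV1, and all distances to KCNN4 and P2RX7, rest in part on the pseudocount.

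**Figure D4:**
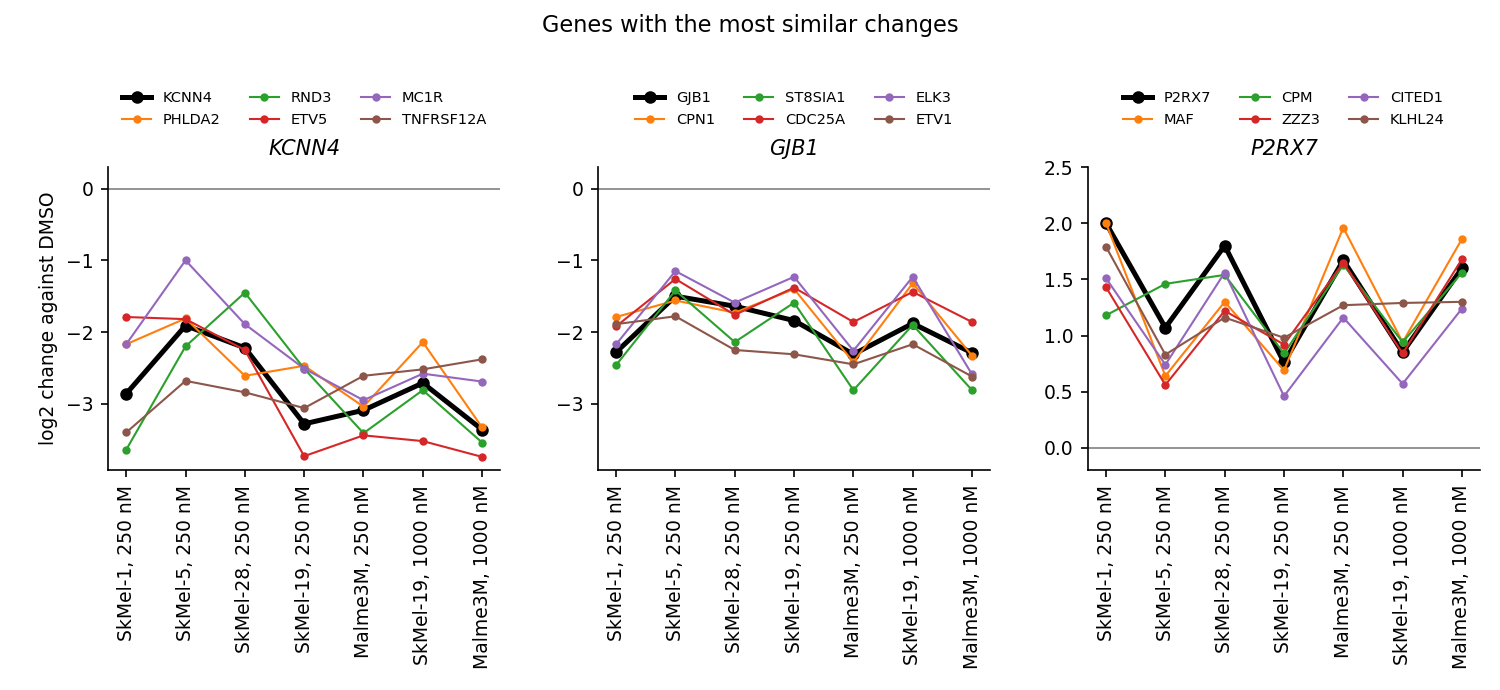
log2 change against DMSO (vertical axis) in each of the 7 treated arrays (horizontal axis) for KCNN4, GJB1 and P2RX7 (black) and the 5 genes nearest to each by root mean square difference (colours). All genes of the KCNN4 and GJB1 panels lie below 0 and all of the P2RX7 panel are higher than 0 on every array. With dim signals taken at face value, MAF and P2RX7 both dip in SkMel-5 and SkMel-19. MAF was picked as the nearest gene over these same arrays, so a shared course follows in part from the choice. CPM, in the same panel, was not lower in SkMel-5 (1.46) than in SkMel-1 (1.18) at 250 nM.

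The deposited signals have the same trimmed mean on every array (499.9), so their even brightness, with medians of 102.5 to 130.4, is no separate check of the arrays. Of 8 melanocyte markers measured, 7 had a signal of 85.7 or more on every array, and the list held 1 rise, MLANA (0.20, SE 0.04, limma adjusted p = 0.0100), and 1 fall, MC1R (-2.10, SE 0.23, limma adjusted p = 0.000542). Of 10 leukocyte markers, from cells that also express KCNN4 and P2RX7, none reached that level on every array and 6 reached it on none. Their summed signal was 269 to 3463 at 250 nM and 323 to 2967 under DMSO, and of 2 compared LAPTM5 fell (-0.69, SE 0.23, limma adjusted p = 0.0486, but 0.558 with dim signals raised to 85.7). Of 11 keratinocyte and epithelial markers 7 were under 85.7 on every array (summed signal 3111 to 7344 at 250 nM and 2895 to 7097 under DMSO), and of 3 compared the keratin gene KRT18 fell (-0.77, SE 0.15, limma adjusted p = 0.00741). CDH1 (0.72, limma adjusted p = 0.0907) and KRT10 (0.15, limma adjusted p = 0.152) were each higher in 4 of 5 lines and did not pass. Of 10 fibroblast markers 5 were under that level on every array (639 to 2085 and 658 to 1819), and of 2 compared, LUM (0.18, limma adjusted p = 0.133) and COL1A1 (-0.05, limma adjusted p = 0.816), neither passed. No marker was at 0 on all arrays of a group, and the part of these markers in the changes above was not tested.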

How the data were processed

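Signal intensity per probe set, 22277 probe sets on 12 Affymetrix arrays, was deposited by the authors as 1 table. The submitters' processing notes name GCOS, the software of the array's maker. Its version and settings are not given in the sources used here. Biotinylated cRNA was made from total RNA, per the labels' protocols. The deposited intensities are linear, and every array has the same trimmed mean (499.9), as found from the values. With 1 array per line and dose and line as a block, p-values rest on how the change within a line varies from line to line. The intensities were used as deposited, as log2(signal + 12), with 12 taken from the 20th percentile of the table.

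Control probe sets (62) were left out. Probe sets were named from the platform annotation (19064 with 1 symbol, 1043 with several, 2108 with none). Of those with 1 symbol 19052 matched the RefSeq gene table by Entrez ID. For each of 11963 genes the brightest probe set on average was kept, and the 7178 genes at or above the 40th percentile of mean level (a signal of 85.7) were compared.

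KCNN4, GJB1 and P2RX7 were chosen, and the gene lists drawn up, with earlier results of these data known, so changes of the 3 genes are given as differences within lines, with SD and SE over lines and no test. Other genes were tested with limma 3.58.1 in R 4.3.3 (prior variance with a trend, Benjamini-Hochberg over 7178 genes, threshold 0.05), with cell line as a block, on 10 arrays for 250 nM and on the 6 arrays of SkMel-19 and Malme3M for 1000 nM. The same steps were tested on simulated data. The line in the labels pairs the arrays: deviations from the group mean correlated at 0.898 to 0.931 between arrays of the same line and at most at -0.135 between lines. Taking deviations from a group mean by itself tends to make the values between lines negative, so only those within a line are informative. Nothing in the labels gives separate cultures within a line.

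Of each list the text names at most 4 genes, those that passed at 250 nM and changed most, or, where none did, the 2 of lowest p. KCNAB2, KCNS3, GJA1, P2RX4, NLRP3, REST, SOX10, SP1, CLCN7, LRRC8B, TRPV2, ORAI2, LCP1, CDH1 and KRT10 were added for their known roles or to complete a count, after their values were seen, as were the genes of the families given again at 1000 nM. Neighbours are the nearest genes with a probe set on either side. The alternatives were other pseudocounts (1, 50), raising dim signals to 85.7, centring, quantile normalization, no filter, the mean of all probe sets, no block, no trend and leaving out each line. Figures were drawn with matplotlib 3.10.9.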

Additional observations from a re-analysis of the deposited data

Results flagged for a closer look

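Between 1000 nM and 250 nM the log2 changes in SkMel-19 and Malme3M had opposite signs: 0.56 and -0.27 for KCNN4, -0.04 and 0.01 for GJB1, and 0.09 and -0.06 for P2RX7. Both KCNN4 signals of SkMel-19 lay under 85.7, and raised to it they do not differ. Each value rests on 1 pair of arrays, and the difference between the lines was not tested. Among 58 sets of 5 values examined for a single line far from the others, namely the signals of the 3 genes and the changes of all genes named, 0 held such a line.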

How the results depend on the processing

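All changes of KCNN4, GJB1 and P2RX7 against DMSO kept their direction under every alternative run. At 250 nM they ranged from -2.89 (pseudocount 1) to -2.23 (pseudocount 50) for KCNN4, -2.02 to -1.82 for GJB1 and 1.26 to 1.63 for P2RX7. Leaving out each line in turn gave -2.86 to -2.52 for KCNN4, -2.02 to -1.82 for GJB1 and 1.32 to 1.63 for P2RX7. At 1000 nM KCNN4 moved by more than its SD, from -3.04 to -2.54, with a pseudocount of 50 and with signals under 85.7 raised to it. The mean change is the same without the replicate block, since lines are balanced, but its SE grew to 0.72 for KCNN4, 0.24 for GJB1 and 0.74 for P2RX7. The 11 lists together held 8 to 10 rises and 9 to 12 falls at 250 nM on leaving out a line (10 and 14 with all lines), with 9 falls without Malme3M. Without the replicate block 0 rose and 1 fell at 250 nM, and 0 and 0 at 1000 nM, as line differences then enter the error. COL1A1 (0.07 without SkMel-19) and ZNF45 (-0.06 with the mean of its probe sets) changed sign, neither of them called. Over the other genes named and all alternatives at 250 nM, direction and call were kept 598 times and the call was lost 83 times, 39 of them without the block. At 1000 nM, with 2 lines, direction and call were kept 380 times and the call was lost 56 times. KCNN4 and P2RX7 have 3 and 2 arrays under 85.7, where the deposited signals carry no statement of background, and each of the 3 genes has only 1 probe set.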

Other observations

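Of 278 genes in the 11 lists, 214 were under the filter, and in the fit without it 4 of these (1.87%) passed at 250 nM, against 2.63% of all 4785 genes under the filter. They were named after their values were seen. KCNJ13, an inward-rectifier potassium channel known from the retinal pigment epithelium, was higher in all 5 lines, with signals at 250 nM of 43.6 in SkMel-1, 20.6 in SkMel-5, 165.0 in SkMel-28, 41.2 in SkMel-19 and 548.8 in Malme3M, against 10.4, 4.1, 8.1, 1.7 and 27.2 under DMSO (log2 fold change 2.25, SE 0.39, limma adjusted p = 0.00871). At 1000 nM its signal was 25.3 in SkMel-19 and 552.7 in Malme3M. At 250 nM 3 of the 5 lines stayed under 85.7, so the size of that change is not well measured. KCNK2, a potassium leak channel, was also higher in all 5 lines (1.07, SE 0.17, limma adjusted p = 0.00633), but its highest signal was 52.7 at 250 nM and 22.8 under DMSO. TRPV6, a calcium channel, was higher in 4 of 5 lines (0.97, SE 0.24, limma adjusted p = 0.0332), with no signal at 250 nM above 45.5.

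The AP-1 subunit FOS was lower in all 5 lines (log2 fold change -2.67, SE 0.28, limma adjusted p = 0.00121). Its signal at 250 nM was 353.4 in SkMel-5 and at most 42.8 in the other 4 lines, against 904.3 in SkMel-5 and 123.9 to 310.3 in the others under DMSO. All treated signals outside SkMel-5 lay under 85.7, so the size of the fall there is not well measured and the lines are not ranked.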
